A study of Homo sapiens with 9 samples.

Results

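SFRP1 and 9 genes of the Wnt pathway, DKK1, AXIN2, NKD1, RNF43, ZNRF3, LEF1, TCF7, SP5 and LGR5, were followed through RNA-seq of human embryonic kidney cells in which TTC33 or CCDC97 had been depleted. The 10 genes are secreted Wnt inhibitors and genes that β-catenin signalling switches on, most of which act back on the pathway. They were taken by symbol from the gene counts of the 3 groups, out of 60664 genes listed, and all 10 were among the 18299 genes with enough counts to be tested. They were chosen by name, on the same counts in the 3 groups that are described here and with results of those counts known; no threshold was used. Their fold changes are therefore given as a description, without p-values of their own. Where one is said to pass the threshold, an edgeR adjusted p below 0.05 over all genes tested, that places the value and is no independent evidence.

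The cells were HEK293 Flip-In T-Rex, an embryonic kidney line with a single integration site for a transgene and a tetracycline repressor. In the TTC33 knock-down group (n = 3 libraries) the cells expressed a microRNA against TTC33 from a tetracycline-inducible promoter. In the CCDC97 knock-down group (n = 3) the microRNA was directed against CCDC97, from the same kind of promoter. The control group (n = 3) was the parental line without a microRNA, so no group carried a non-targeting microRNA. All 3 groups were given tetracycline at 100 ng/ml for 3 days. TTC33, a protein of tetratricopeptide repeats, and CCDC97, a coiled-coil protein, were the depleted proteins, and the study asked how gene expression differed without each. The labels do not say whether a line was 1 clone, nor whether replicates were separate cultures, so a p-value here speaks of the scatter among these libraries, which may be technical in part or in whole.

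Wnt ligands bind frizzled receptors and LRP co-receptors at the cell surface, and β-catenin then escapes destruction, enters the nucleus and switches on genes together with LEF1 and TCF proteins. Secreted inhibitors keep ligand from receptor: SFRP1 binds the ligand and DKK1 binds the co-receptor. Many targets close a feedback loop, since AXIN2, NKD1, RNF43 and ZNRF3 each dampen the signal that induced them. In the developing kidney the pathway takes part in nephron formation.

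LEF1 and TCF proteins recognise the letters CTTTGAA or CTTTGAT in DNA. These letters were searched on both strands of the promoter windows of RefSeq (build GRCh38.p14), from 250 bases before to 50 bases after each gene's start. Windows were searched for 5 of the 10 genes, DKK1, LEF1, TCF7, SP5 and RNF43, 7 windows in all. SFRP1 was left out of this search, so nothing is said here of its promoter. No window was held for AXIN2, NKD1, ZNRF3 and LGR5. Of the windows searched, only those of DKK1 and SP5 held a match, and they are printed here for that reason. They read 5′ to 3′ on the gene's strand, with the matched letters in capitals. A match on the opposite strand reads TTCAAAG.
DKK1: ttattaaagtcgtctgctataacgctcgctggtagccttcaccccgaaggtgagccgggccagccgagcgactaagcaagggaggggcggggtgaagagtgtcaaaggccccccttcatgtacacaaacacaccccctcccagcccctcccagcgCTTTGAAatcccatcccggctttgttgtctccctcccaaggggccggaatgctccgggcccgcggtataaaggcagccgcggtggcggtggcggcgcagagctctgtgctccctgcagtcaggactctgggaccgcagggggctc
SP5: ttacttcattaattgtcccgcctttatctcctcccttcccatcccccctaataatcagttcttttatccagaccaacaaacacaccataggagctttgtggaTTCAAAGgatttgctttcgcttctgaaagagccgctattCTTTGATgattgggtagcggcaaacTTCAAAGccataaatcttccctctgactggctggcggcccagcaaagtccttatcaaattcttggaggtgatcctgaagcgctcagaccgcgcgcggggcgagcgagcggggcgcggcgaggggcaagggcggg
The DKK1 window (chr10:52314031-52314330, plus strand) held CTTTGAA once, 95 to 89 bases before the start. The SP5 window (chr2:170715087-170715386, plus strand) held CTTTGAT 109 to 103 bases before the start. It also held CTTTGAA on the opposite strand, at 148 to 142 and at 84 to 78 bases before the start. Of all 35116 promoter windows, 6.86% held at least 1 match to either form and 0.0256% held 3 or more. The matches describe letters in these windows and show no binding.

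Libraries held from 21764203 to 36110891 gene counts. Levels are given as CPM, counts per 1e6 counts of the library after scaling with TMM factors. TTC33 had 9.67, 6.41 and 6.16 CPM in TTC33 knock-down libraries, against 37.7, 37.1 and 38.6 CPM in controls. CCDC97 had 15.8, 15.3 and 15.7 CPM in CCDC97 knock-down libraries, against 60.6, 60.1 and 59.5 CPM in controls. Each library thus matched its label. CCDC97 was also higher in the TTC33 knock-down, at 65.1, 81.3 and 95.8 CPM, all above the controls. Its log2 fold change there was 0.43 ± 0.12 (SE) and passed the threshold, or 0.24 ± 0.07 with GC content and length corrected. TTC33 had 30.0, 52.5 and 47.0 CPM in CCDC97 knock-down libraries, which overlapped the controls. Of 9 markers of kidney and the HEK293 line, 7 reached a mean of 1 CPM over the 9 libraries, among them PAX2, LHX1, EYA1 and WT1. NEFM averaged 0.88 CPM and PAX8 stayed near 0. None of the 4 blood and none of the 4 endothelial markers reached that mean, and HBB had no count. Of 6 fibroblast markers, COL1A1 and PDGFRA reached it. The summed level of the fibroblast list was 10.8 to 13.2 CPM in the TTC33 knock-down, 9.48 to 12.1 CPM in the CCDC97 knock-down and 10.2 to 11.8 CPM in controls. That of the kidney and HEK293 list was higher in the TTC33 knock-down, at 954 to 1109 CPM. It was 796 to 876 CPM in the CCDC97 knock-down and 837 to 869 CPM in controls. VIM, which is not particular to kidney, made up most of this sum, averaging 780 CPM in the TTC33 knock-down and 616 CPM in controls. The kidney genes did not rise together. In the TTC33 knock-down against controls, PAX2 averaged 5.52 against 5.71 CPM and LHX1 5.83 against 6.25 CPM. WT1 averaged 8.67 against 8.27 CPM and EYA1 19.2 against 14.4 CPM in the same groups. The endothelial list summed to 1.22 to 1.42 CPM in the TTC33 knock-down, 0.396 to 0.672 CPM in the CCDC97 knock-down and 0.463 to 0.951 CPM in controls. In both knock-downs, GC-rich genes had other levels in replicate 1 than in replicates 2 and 3. Genes of the highest GC decile had a median log2 difference from the control mean of -0.09, 0.37 and 0.40 in TTC33 knock-down replicates 1, 2 and 3. The same genes stood at 0.15, -0.28 and -0.28 in CCDC97 knock-down replicates 1, 2 and 3. Where the log2 fold change of a gene is given below, the value corrected for GC content and length is added under 1 of 3 conditions. These are that it changes the call, turns the sign or moves the log2 value by over 1.5 times.

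SFRP1 was lower in both knock-downs than in controls. The gene encodes a secreted frizzled-related protein that binds Wnt ligands outside the cell, and it lies on the minus strand of chromosome 8, from 41261958 to 41309497 (GRCh38, GENCODE 29), with 3 exons in its longest transcript. It had 16.9, 13.8 and 15.9 CPM in TTC33 knock-down libraries, 20.7, 18.1 and 18.7 CPM in CCDC97 knock-down libraries, and 34.1, 30.9 and 33.2 CPM in control libraries. The highest knock-down library of either kind lay below the lowest control. The counts behind these levels ran from 398 to 527 in TTC33 knock-down libraries, from 386 to 586 in CCDC97 knock-down libraries and from 1048 to 1233 in controls. No other annotated gene shares exon bases with SFRP1.

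The mean of SFRP1 was 15.5 ± 1.60 CPM in the TTC33 knock-down, 19.2 ± 1.38 CPM in the CCDC97 knock-down and 32.7 ± 1.65 CPM in controls (SD, n = 3 each). With TTC33 depleted its level was thus 0.475 times that of controls, or -1.07 ± 0.10 (SE) on the log2 scale. With CCDC97 depleted it was 0.586 times that of controls, or -0.77 ± 0.10 on the log2 scale. Both comparisons use the same 3 control libraries, so their values stand side by side and do not support each other. In bulk RNA, fewer cells with SFRP1 transcript and less transcript per cell cannot be told apart.

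With 1 of the 9 libraries left out at a time, the log2 fold change of SFRP1 ran from -1.14 to -0.99 in the TTC33 knock-down and from -0.83 to -0.74 in the CCDC97 knock-down. Under the 9 other alternatives of scaling, filter, tool, fit and correction it ran from -1.12 to -1.07 in the TTC33 knock-down and from -0.80 to -0.77 in the CCDC97 knock-down. These ranges describe how far the values moved and come from the same libraries. With replicate 1 of both knock-downs left out, the log2 fold changes were -1.14 with TTC33 depleted and -0.83 with CCDC97 depleted. The smaller count table deposited for each library, which comes from the same RNA, held 581 counts of SFRP1 over the 9 libraries. Its SFRP1 level averaged 14.8 CPM in the TTC33 knock-down, 18.5 CPM in the CCDC97 knock-down and 31.2 CPM in controls, log2 ratios of -1.08 and -0.75 to controls.

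**Figure D1:**
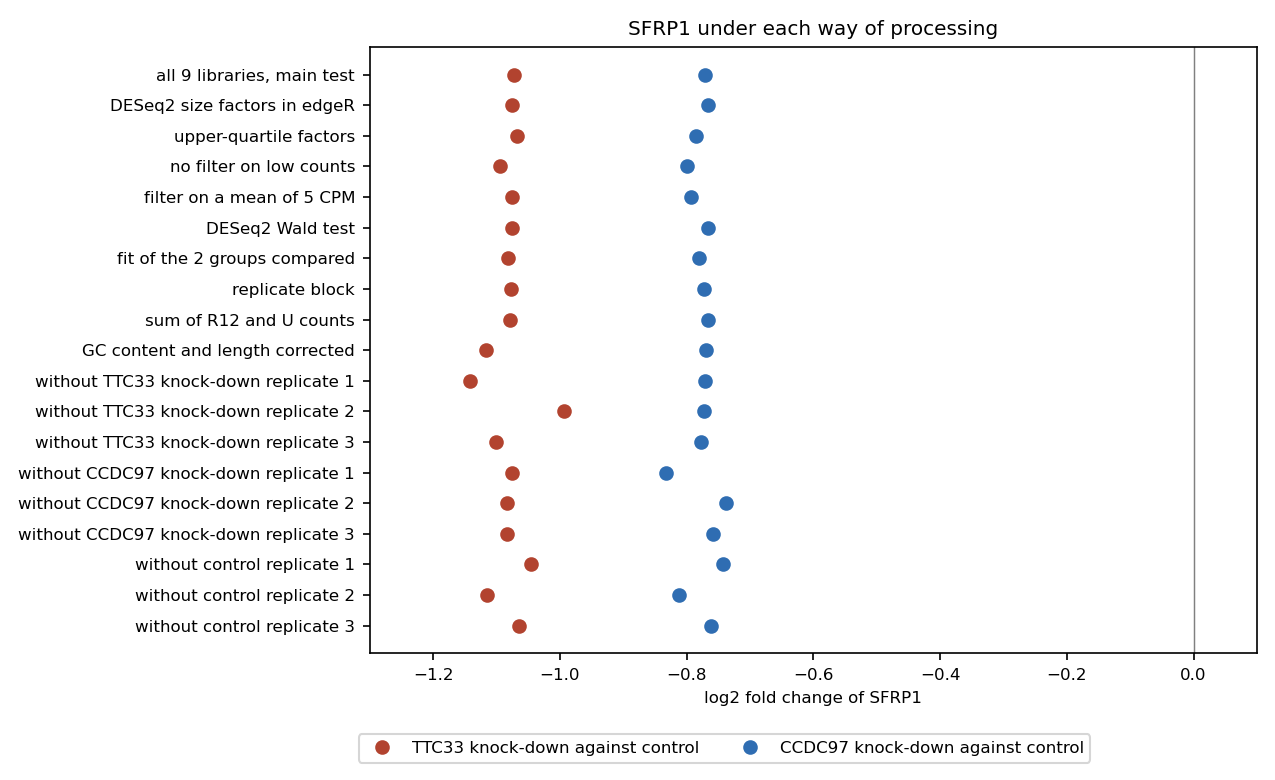
Log2 fold change of SFRP1 against control (x axis) for each way of processing (y axis, 1 line each), in red for the TTC33 knock-down and in blue for the CCDC97 knock-down. The red points lie between -1.14 and -0.99 and the blue points between -0.83 and -0.74. All settings draw on the same libraries, so the gap between the colours is no test of a difference between the knock-downs. In the direct comparison SFRP1 stood at -0.30 ± 0.10 and did not pass the threshold in the main fit.

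DKK1, the secreted inhibitor that binds the LRP co-receptor, was close to the limit of detection. The gene lies on the plus strand of chromosome 10, from 52314296 to 52318042. It had 19, 19 and 15 counts in TTC33 knock-down libraries, 14, 14 and 19 in CCDC97 knock-down libraries, and 22, 26 and 9 in controls. The counts correspond to 0.614 ± 0.043 CPM in the TTC33 knock-down, 0.626 ± 0.25 CPM in the CCDC97 knock-down and 0.534 ± 0.22 CPM in controls (SD, n = 3 each). The 3 groups overlapped, with log2 fold changes of 0.18 ± 0.35 with TTC33 depleted and 0.15 ± 0.36 with CCDC97 depleted. The CCDC97 knock-down value was 0.07 ± 0.35 with GC content and length corrected. A difference was not detectable at this depth. DKK1 shares 212 exon bases with the antisense gene PRKG1-AS1, and whether the counting used strand is not given in the sources used here.

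**Figure D2:**
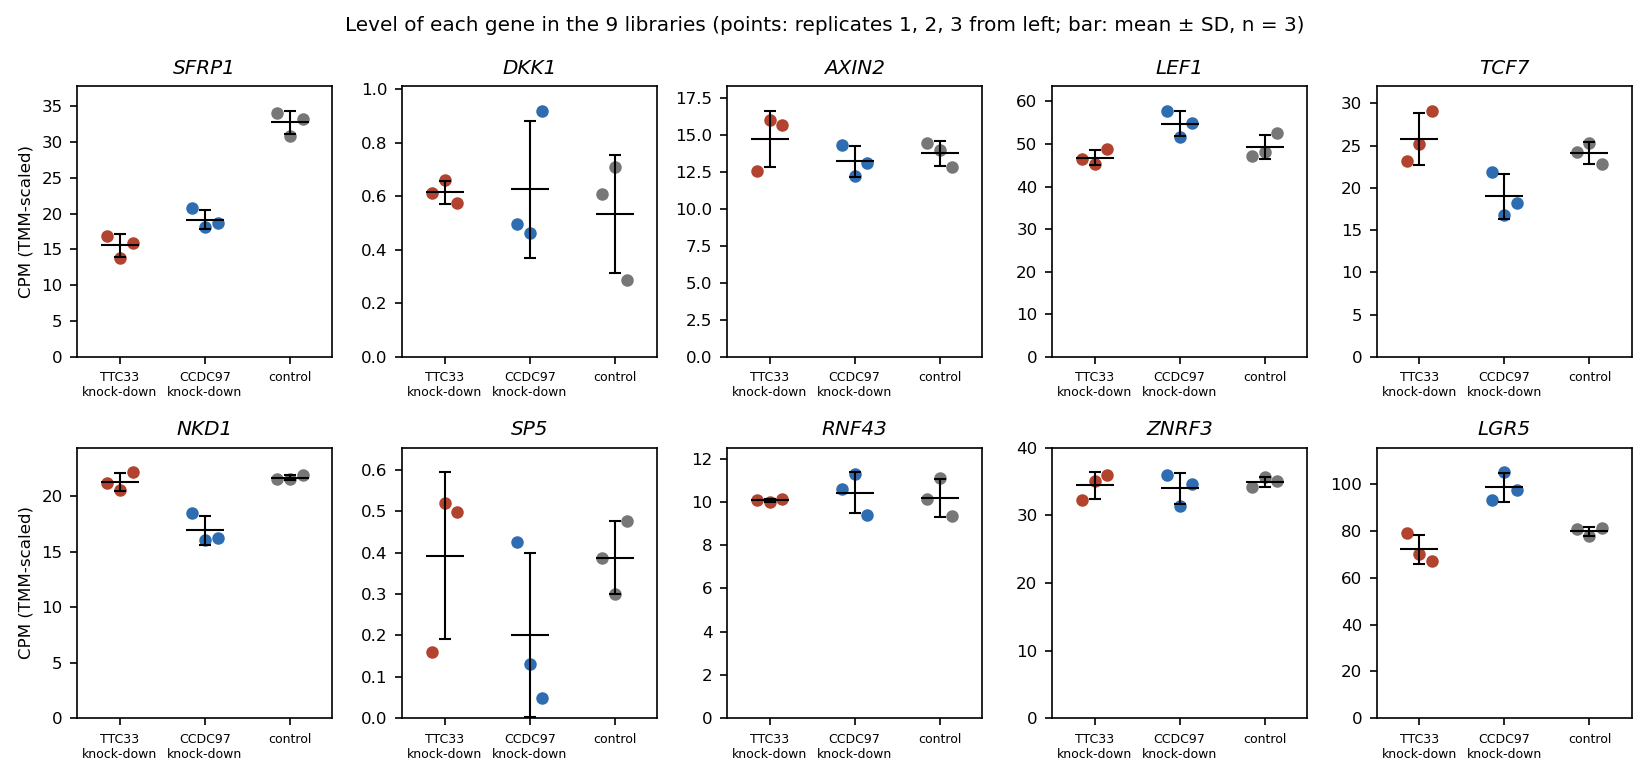
Level of each of the 10 genes in CPM (y axis, from 0, a scale per panel) in the TTC33 knock-down (red), the CCDC97 knock-down (blue) and the control (grey), with replicates 1, 2 and 3 as points from left to right and the mean ± SD as bars. SFRP1 shows both knock-downs below all controls, while RNF43, ZNRF3 and AXIN2 overlap in all groups.

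AXIN2, the scaffold of the β-catenin destruction complex and the most used readout of the pathway, overlapped the controls in both knock-downs. It lies on the minus strand of chromosome 17, from 65528563 to 65561647. It had 12.6, 16.0 and 15.7 CPM in TTC33 knock-down libraries, 14.3, 12.2 and 13.1 CPM in CCDC97 knock-down libraries, and 14.5, 14.0 and 12.8 CPM in controls. Replicate 1 of the TTC33 knock-down lay below all controls and replicates 2 and 3 above them. The log2 fold change was 0.10 ± 0.11 with TTC33 depleted and -0.06 ± 0.11 with CCDC97 depleted. After correction for GC content and length it was 0.01 ± 0.08 with TTC33 depleted and -0.03 ± 0.08 with CCDC97 depleted. AXIN2 passed the threshold against control only with replicate 1 of both knock-downs left out, at 0.20 in the TTC33 knock-down. It shares 1316 exon bases with AC004805.1 on its own strand, for which no library had more than 2 counts.

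NKD1, an inhibitor that binds dishevelled, was lower in the CCDC97 knock-down. It lies on the plus strand of chromosome 16, from 50548330 to 50649249. It had 21.2, 20.6 and 22.2 CPM in TTC33 knock-down libraries, 18.5, 16.1 and 16.3 CPM in CCDC97 knock-down libraries, and 21.6, 21.6 and 21.9 CPM in controls. The CCDC97 knock-down libraries lay below the other 6, while TTC33 knock-down and control libraries overlapped. The log2 fold change was -0.02 ± 0.08 with TTC33 depleted and -0.36 ± 0.08 with CCDC97 depleted, and only the CCDC97 knock-down passed the threshold. The TTC33 knock-down value was -0.13 ± 0.06 after correction for GC content and length. The call in the CCDC97 knock-down was lost when any 1 control library, TTC33 knock-down replicate 2, or CCDC97 knock-down replicate 2 or 3 was left out, with log2 fold changes from -0.42 to -0.33 over the 9 such fits. In the smaller count table, the log2 ratio of NKD1 between the CCDC97 knock-down and controls was -0.02, on 515 counts over all libraries. NKD1 shares 67 exon bases with AC007608.1 on the other strand, which had no count in any library.

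RNF43 and ZNRF3 are paralogous ubiquitin ligases of the cell membrane that remove frizzled receptors. RNF43 lies on the minus strand of chromosome 17, from 58352500 to 58417595, and ZNRF3 on the plus strand of chromosome 22, from 28883592 to 29057487. RNF43 had 10.1, 9.99 and 10.1 CPM in TTC33 knock-down libraries, 10.6, 11.3 and 9.39 CPM in CCDC97 knock-down libraries, and 10.1, 11.1 and 9.35 CPM in controls. ZNRF3 had 32.2, 35.1 and 36.0 CPM in TTC33 knock-down libraries, 35.9, 31.4 and 34.7 CPM in CCDC97 knock-down libraries, and 34.2, 35.6 and 35.1 CPM in controls. All 3 groups overlapped for both genes. The log2 fold changes of RNF43 were -0.02 ± 0.10 with TTC33 depleted and 0.04 ± 0.10 with CCDC97 depleted. Those of ZNRF3 were -0.02 ± 0.08 with TTC33 depleted and -0.04 ± 0.08 with CCDC97 depleted. Corrected for GC content and length, RNF43 stood at -0.08 ± 0.09 with TTC33 depleted and 0.06 ± 0.09 with CCDC97 depleted. Corrected in the same way, ZNRF3 stood at -0.12 ± 0.05 with TTC33 depleted and 0.001 ± 0.054 with CCDC97 depleted, none of them past the threshold. RNF43 shares 4326 exon bases with AC004687.2 and 143 with SUPT4H1 on its strand, and 1521 with TSPOAP1-AS1 on the other. The counts of RNF43 are thus uncertain to the extent that reads fall there. ZNRF3 shares none.

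LEF1, the DNA-binding partner of β-catenin, did not pass the threshold in either knock-down. It lies on the minus strand of chromosome 4, from 108047545 to 108168956. It had 46.4, 45.3 and 48.7 CPM in TTC33 knock-down libraries, 57.7, 51.7 and 55.0 CPM in CCDC97 knock-down libraries, and 47.2, 48.1 and 52.6 CPM in controls. Each knock-down overlapped the controls, while the 3 TTC33 knock-down libraries lay below the 3 CCDC97 knock-down libraries. The log2 fold change was -0.07 ± 0.08 with TTC33 depleted and 0.15 ± 0.08 with CCDC97 depleted. With GC content and length corrected, the TTC33 knock-down value was -0.15 ± 0.05 and did not pass, and the CCDC97 knock-down value was 0.18 ± 0.05 and passed. LEF1 shares 279 exon bases with LEF1-AS1 on the other strand.

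TCF7, which encodes TCF1, a relative of LEF1 that binds the same letters, was set apart in the CCDC97 knock-down without passing the threshold against control. It lies on the plus strand of chromosome 5, from 134114711 to 134151865. It had 23.1, 25.1 and 29.1 CPM in TTC33 knock-down libraries, 21.9, 16.8 and 18.2 CPM in CCDC97 knock-down libraries, and 24.2, 25.3 and 22.8 CPM in controls. The CCDC97 knock-down libraries lay below all others, with replicate 1 nearest to them. The log2 fold change was 0.10 ± 0.12 with TTC33 depleted and -0.34 ± 0.12 with CCDC97 depleted. With GC content and length corrected, the TTC33 knock-down value turned to -0.04 ± 0.07, so its direction is not settled. The CCDC97 knock-down value passed without CCDC97 knock-down replicate 1, at -0.46, and with GC content and length corrected, at -0.29 ± 0.08. TCF7 shares 210 exon bases with SKP1 on the other strand, which is far more abundant: SKP1 averaged 143 CPM in the TTC33 knock-down, 187 CPM in the CCDC97 knock-down and 161 CPM in controls. The part of such reads in the counts of TCF7 was not tested.

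SP5, a zinc-finger repressor that β-catenin induces, had the lowest mean of the 10 genes in each group, with libraries that overlapped those of DKK1 per kilobase in controls. It lies on the plus strand of chromosome 2, from 170715351 to 170718078. It had 5, 15 and 13 counts in TTC33 knock-down libraries, 12, 4 and 1 in CCDC97 knock-down libraries, and 14, 11 and 15 in controls. Replicate 1 stood apart in both knock-downs, low with TTC33 depleted and high with CCDC97 depleted, and all groups overlapped. The log2 fold change was 0.01 ± 0.52 with TTC33 depleted and -0.84 ± 0.59 with CCDC97 depleted. The TTC33 knock-down value turned to -0.26 ± 0.41 after correction for GC content and length. The CCDC97 knock-down value ran from -1.93, without CCDC97 knock-down replicate 1, to -0.48, without CCDC97 knock-down replicate 3, and was -0.56 without CCDC97 knock-down replicate 2. None of these passed, but without replicate 1 of both knock-downs the value was -1.93 and passed. The window of SP5 printed above, with its 3 matches, therefore belongs to a gene with at most 15 counts in a library.

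LGR5, the receptor for R-spondins and a known marker of Wnt-driven stem cells, was the most abundant of the 10 genes. It lies on the plus strand of chromosome 12, from 71439770 to 71586310. It had 79.0, 70.0 and 67.1 CPM in TTC33 knock-down libraries, 93.0, 105 and 97.6 CPM in CCDC97 knock-down libraries, and 80.8, 77.6 and 81.0 CPM in controls. The CCDC97 knock-down libraries lay above the other 6, while TTC33 knock-down replicate 1 lay among the controls and replicates 2 and 3 below them. The log2 fold change was -0.15 ± 0.08 with TTC33 depleted and 0.30 ± 0.08 with CCDC97 depleted, and neither passed the threshold. The TTC33 knock-down value passed without TTC33 knock-down replicate 1, at -0.22, and was -0.09 ± 0.05 with GC content and length corrected. The CCDC97 knock-down value passed in 5 of the 9 other alternatives, GC content and length corrected among them at 0.26 ± 0.05, and when replicate 1 of either knock-down was left out. LGR5 shares 208 exon bases with AC078860.1 on the other strand.

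Over the 10 genes, 1 passed the threshold in the TTC33 knock-down against control, the lower SFRP1, where 11.9% of all genes tested passed, 6.5% higher and 5.44% lower. In the CCDC97 knock-down against control 2 passed, the lower SFRP1 and NKD1, where 4.56% of all genes passed, 2.07% higher and 2.49% lower. The median log2 fold change of the 10 genes was -0.02 with TTC33 depleted and -0.05 with CCDC97 depleted, against 0.005 and 0.0008 over all genes tested in the same comparisons. Groups did not overlap for 1 gene in the TTC33 knock-down, SFRP1, and for 4 in the CCDC97 knock-down, SFRP1, TCF7, NKD1 and LGR5. Among all genes tested the groups did not overlap for 36.8% in the TTC33 knock-down and for 29.9% in the CCDC97 knock-down. The count in the TTC33 knock-down was 2 without TTC33 knock-down replicate 1, LGR5 being added, where 34.9% of all genes passed. It was 1 with any other library left out, where 2.96% to 16% of all genes passed. The count in the CCDC97 knock-down was 4 without CCDC97 knock-down replicate 1, where 9.88% of all genes passed, and 3 without TTC33 knock-down replicate 1, where 10.6% passed. It was 1 without TTC33 knock-down replicate 2, CCDC97 knock-down replicate 2 or 3, or any 1 control library. In these fits 1.09% to 3.12% of all genes passed.

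**Figure D3:**
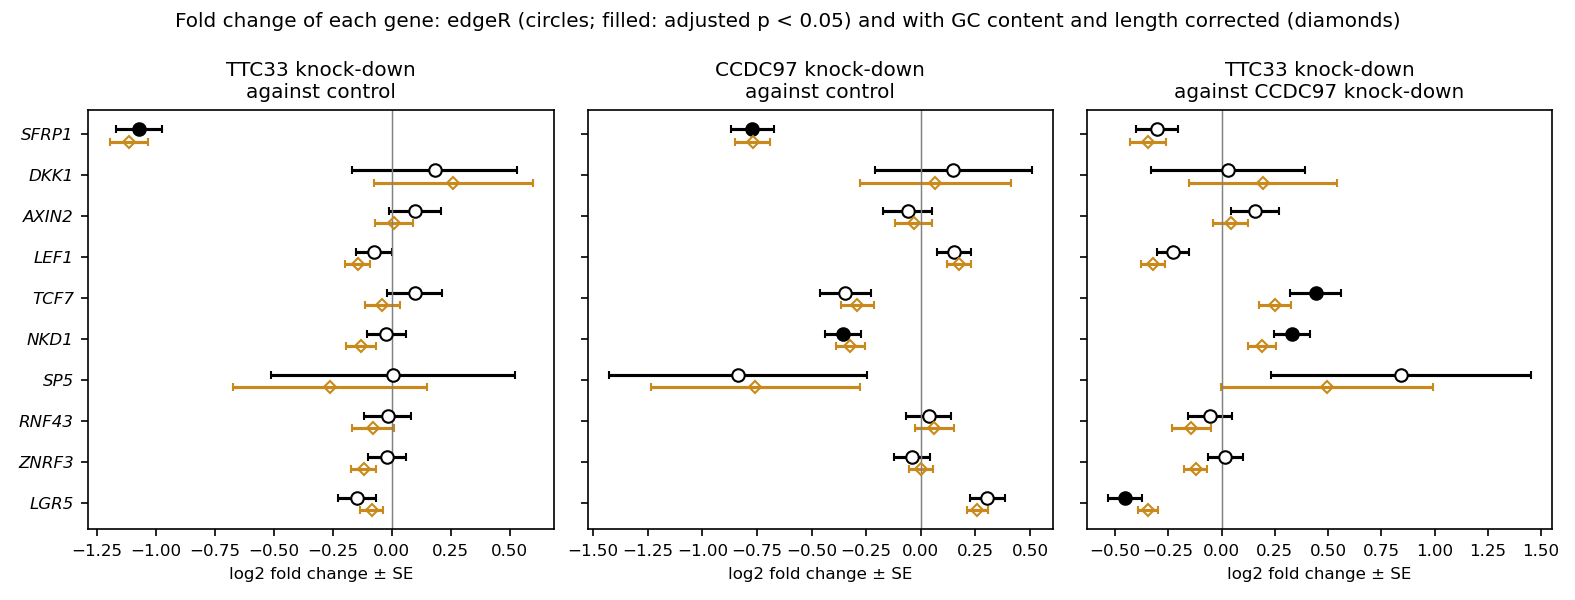
Log2 fold change ± SE of each gene (x axis) in the 3 comparisons (panels), from edgeR (circles, filled where the adjusted p is below 0.05) and with GC content and length corrected (diamonds). SFRP1 stands at -1.07 and -0.77 against control in the first and second panel, and LGR5 at -0.45, below 0, in the third.

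The TTC33 knock-down was also set directly against the CCDC97 knock-down. Of the 10 genes, 3 passed the threshold, TCF7 and NKD1 higher and LGR5 lower in the TTC33 knock-down, where 21.5% of all genes passed, 11.3% higher and 10.2% lower. LGR5 averaged 72.0 ± 6.23 CPM with TTC33 depleted and 98.5 ± 6.06 CPM with CCDC97 depleted (SD, n = 3 each), a log2 difference of -0.45 ± 0.08. The difference ran from -0.52 to -0.41 with 1 library left out at a time, and from -0.46 to -0.34 under the 9 other alternatives. TCF7 averaged 25.8 ± 3.06 CPM with TTC33 depleted and 19.0 ± 2.65 CPM with CCDC97 depleted, a log2 difference of 0.44 ± 0.12, or 0.25 ± 0.08 with GC content and length corrected. NKD1 averaged 21.3 ± 0.82 CPM with TTC33 depleted and 16.9 ± 1.33 CPM with CCDC97 depleted, a log2 difference of 0.33 ± 0.08, or 0.19 ± 0.07 corrected. TCF7 and NKD1 each lost the call without TTC33 knock-down replicate 2 or 3 or CCDC97 knock-down replicate 2 or 3.

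SFRP1 and LEF1 did not pass the threshold in the direct comparison, although the 3 TTC33 knock-down libraries lay below the 3 CCDC97 knock-down libraries for both. The log2 difference of SFRP1 was -0.30 ± 0.10, and that of LEF1 was -0.23 ± 0.08. With GC content and length corrected both passed, SFRP1 at -0.35 ± 0.09 and LEF1 at -0.32 ± 0.05. Both also passed without TTC33 knock-down replicate 1. The other genes overlapped between the knock-downs. Their log2 differences were 0.03 ± 0.36 for DKK1, 0.16 ± 0.11 for AXIN2, 0.84 ± 0.61 for SP5, -0.05 ± 0.10 for RNF43 and 0.02 ± 0.08 for ZNRF3. Corrected, they were 0.19 ± 0.35 for DKK1, 0.04 ± 0.08 for AXIN2, 0.49 ± 0.50 for SP5, -0.14 ± 0.09 for RNF43 and -0.12 ± 0.05 for ZNRF3. In all, groups did not overlap for 5 of the 10 genes, against 30.4% of all genes tested. The count of 3 genes became 5 without TTC33 knock-down replicate 1, where 41.6% of all genes passed. It became 1 without TTC33 knock-down replicate 2 or 3 or CCDC97 knock-down replicate 2 or 3, where 8.17% to 9.74% of all genes passed.

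TCF7 and LGR5, which differ in GC content (54.9% and 43.8% of the longest transcript), lay on opposite sides of the control mean in every knock-down library but TTC33 knock-down replicate 1. Relative to the control mean, the log2 CPM of TCF7 differed by -0.06, 0.06 and 0.27 in TTC33 knock-down replicates 1, 2 and 3, and that of LGR5 by -0.01, -0.19 and -0.25. In CCDC97 knock-down replicates 1, 2 and 3, TCF7 differed by -0.14, -0.52 and -0.40, and LGR5 by 0.22, 0.40 and 0.29. Replicate 1 of the CCDC97 knock-down was the nearest of its group to the controls for both genes, as it was for the GC-rich genes given above. The sign differed in that library: GC-rich genes stood at 0.15 and TCF7 at -0.14, genes of the lowest GC decile at -0.15 and LGR5 at 0.22. In replicates 2 and 3 the signs were the same. The part of GC content in these differences was not tested. In the TTC33 knock-down, replicate 1 was the nearest for LGR5, and replicates 1 and 2 lay about equally near for TCF7. SFRP1, with a GC content of 50.04%, differed by -0.95, -1.24 and -1.04 in the TTC33 knock-down and by -0.66, -0.85 and -0.81 in the CCDC97 knock-down, so replicate 1 was again the nearest to the controls, but far below them.

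Levels of different genes were compared as CPM per kilobase of annotated exon, a length that may exceed that of the transcripts used. In controls the order was LGR5 at 15.2 ± 0.36, LEF1 at 9.20 ± 0.53, SFRP1 at 6.87 ± 0.35 and ZNRF3 at 5.02 ± 0.10 CPM per kilobase (SD, n = 3). There followed AXIN2 at 2.63 ± 0.16, TCF7 at 2.40 ± 0.13, RNF43 at 1.36 ± 0.12, NKD1 at 1.24 ± 0.012, DKK1 at 0.242 ± 0.10 and SP5 at 0.188 ± 0.043. Of these neighbours, AXIN2 and TCF7, RNF43 and NKD1, and DKK1 and SP5 overlapped between libraries and were not told apart. SFRP1 came after ZNRF3 in both knock-downs, at 3.27 ± 0.34 CPM per kilobase against 4.94 ± 0.28 for ZNRF3 in the TTC33 knock-down, and at 4.03 ± 0.29 against 4.88 ± 0.33 in the CCDC97 knock-down. In the TTC33 knock-down SFRP1 overlapped AXIN2, at 2.82 ± 0.36, while in controls its lowest library lay well above the highest of AXIN2. The order of the other genes was the same in all 3 groups.

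Genes whose log2 CPM ran most like that of SFRP1 over the 9 libraries, among 11347 genes with a symbol and a mean of at least 5 CPM, included TXNRD3 (Pearson r = 0.988), TMCC1-DT (0.973), BACE2 (0.970) and AMOT (0.964). The libraries share their groups, so these values describe the same step between knock-downs and controls. AMOT, the angiomotin that binds YAP, averaged 158 ± 9.02 CPM in the TTC33 knock-down, 167 ± 11.96 CPM in the CCDC97 knock-down and 403 ± 3.66 CPM in controls. BACE2, a membrane protease, averaged 58.4 ± 2.74 CPM in the TTC33 knock-down, 64.3 ± 1.42 CPM in the CCDC97 knock-down and 87.1 ± 2.74 CPM in controls. The genes most like AXIN2 were TPM2 (r = 0.980), HOXD9 (0.971) and RAD9A (0.967). TPM2 had 6.81, 11.9 and 12.3 CPM in TTC33 knock-down replicates 1, 2 and 3, and 9.41, 6.64 and 7.02 CPM in those of the CCDC97 knock-down. Replicate 1 thus stood apart in both knock-downs, as it did for the GC-rich genes given above. The part of GC content in these correlations was not tested.

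The rest of the pathway was read from 7 lists of 109 further Wnt genes, of which 95 were tested. In the TTC33 knock-down against control 4 rose and 7 fell, 11.6% of those tested, against 11.9% of all genes. In the CCDC97 knock-down against control 1 rose and 2 fell, 3.16% of those tested, against 4.56% of all genes. The median log2 fold change of the lists together was 0.08 with TTC33 depleted and -0.04 with CCDC97 depleted. Each share thus lay near that of all genes tested. These lists, too, were chosen with earlier results of the data known. The adjusted p-values given for their genes therefore place the values and are no independent evidence.

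Of the Wnt targets outside the 10 genes, MYC and CCND1 fell in the TTC33 knock-down, and CD44 rose in the CCDC97 knock-down. MYC, a transcription factor of growth, had 75.6, 93.9 and 98.3 CPM in TTC33 knock-down libraries, against 144, 139 and 146 CPM in controls (log2 fold change -0.68 ± 0.12, edgeR adjusted p = 0.00606). CCND1, which encodes cyclin D1, had 104, 109 and 110 CPM in TTC33 knock-down libraries, against 148, 149 and 144 CPM in controls (-0.45 ± 0.07, edgeR adjusted p = 0.00329). CD44, a receptor for hyaluronan, had 27.9, 27.3 and 26.8 CPM in CCDC97 knock-down libraries, against 14.7, 14.9 and 14.8 CPM in controls (0.89 ± 0.08, edgeR adjusted p = 0.000198). The groups did not overlap for any of these 3 genes, and each passed with any 1 library left out. MYC averaged 153 ± 24.2 CPM in the CCDC97 knock-down and 143 ± 3.57 CPM in controls, and CD44 averaged 14.9 ± 1.18 CPM in the TTC33 knock-down and 14.8 ± 0.09 CPM in controls, and neither passed there. Of the 15 tested genes of that list, 1 rose and 2 fell in the TTC33 knock-down, MSX2 being the one that rose (0.40 ± 0.08, edgeR adjusted p = 0.0147), and only CD44 passed in the CCDC97 knock-down.

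Among the Wnt ligands, 2 of 15 tested fell in the TTC33 knock-down and none rose. WNT3, a ligand of the β-catenin branch, had 10.4, 9.19 and 11.4 CPM in TTC33 knock-down libraries, against 15.3, 15.6 and 14.4 CPM in controls (log2 fold change -0.55 ± 0.12, edgeR adjusted p = 0.0171). WNT8B averaged 2.88 ± 0.13 CPM in the TTC33 knock-down and 3.94 ± 0.09 CPM in controls (-0.46 ± 0.13, edgeR adjusted p = 0.0453). WNT8B was the only ligand of the list that fell when CCDC97 was depleted, with 2.62 ± 0.41 CPM in the CCDC97 knock-down and 3.94 ± 0.09 CPM in controls (-0.58 ± 0.13, edgeR adjusted p = 0.0346). Of 15 frizzled and co-receptor genes, FZD6 fell in the CCDC97 knock-down and none passed in the TTC33 knock-down. The FZD6 level was 21.0, 27.1 and 25.8 CPM in CCDC97 knock-down libraries, against 39.7, 39.5 and 41.0 CPM in controls (-0.70 ± 0.13, edgeR adjusted p = 0.0155). The calls of WNT3 and FZD6 were lost without any 1 control library, and that of WNT3 also without TTC33 knock-down replicate 2. With 1 library removed at a time, WNT8B lost its call in 6 of 9 fits in each knock-down.

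None of 6 genes of ligand secretion and R-spondins passed in either knock-down. Of 14 further secreted and membrane inhibitors, only SFRP4, a relative of SFRP1, passed, with 0.856 ± 0.26 CPM in the TTC33 knock-down and 1.55 ± 0.24 CPM in controls (log2 fold change -0.83 ± 0.23, edgeR adjusted p = 0.0401). In the smaller count table its log2 ratio was -0.04, on 34 counts over all libraries. Of 16 cytoplasmic transducers, APC2 and CSNK1D rose and AMER1 fell in the TTC33 knock-down. APC2, a relative of the tumour suppressor APC, had 2.22, 3.54 and 3.52 CPM in TTC33 knock-down libraries, against 1.44, 1.497 and 1.20 CPM in controls. Its log2 fold change was 1.15 ± 0.26 (edgeR adjusted p = 0.0206), or 0.74 ± 0.16 with GC content and length corrected. CSNK1D had 0.34 ± 0.10 (edgeR adjusted p = 0.0441), or 0.16 ± 0.05 corrected, and AMER1 had -0.36 ± 0.10 (edgeR adjusted p = 0.0443). Of 14 nuclear partners, TLE1, a co-repressor, rose in the TTC33 knock-down by 0.36 ± 0.09 on the log2 scale (edgeR adjusted p = 0.0312), or by 0.20 ± 0.04 corrected. CTNNBIP1, which binds β-catenin and keeps it from TCF proteins, had a log2 fold change of -0.32 ± 0.08 (edgeR adjusted p = 0.0325). No gene of these 4 lists passed in the CCDC97 knock-down without correction. With GC content and length corrected, those that passed included CTNNB1, the gene of β-catenin, at 0.27 ± 0.05, against 0.30 ± 0.08 uncorrected. Also higher were APC at 0.19 ± 0.05 and TLE1 at 0.15 ± 0.04, while BCL9 at -0.22 ± 0.07, PYGO2 at -0.22 ± 0.05 and WLS at -0.15 ± 0.04 were lower. The calls of SFRP4, APC2, CSNK1D, AMER1, TLE1, CTNNBIP1 and MSX2 were each lost without any 1 control library, which left 2 of the 11 genes called, and in at least 1 fit without a knock-down library. The total of 11 became 38 without TTC33 knock-down replicate 1, 39.6% of the further genes tested, where 34.9% of all genes tested passed in the same fit. It became 3 without TTC33 knock-down replicate 2, or 3.16% against 3.46% of all genes, and 4 without TTC33 knock-down replicate 3, or 4.17% against 3.73% of all genes. Without any 1 control library it was 2, where 2.96% to 3.67% of all genes passed. The total of 3 in the CCDC97 knock-down became 9 without TTC33 knock-down replicate 1, or 9.38% against 10.6% of all genes, and 9 without CCDC97 knock-down replicate 1, or 9.38% against 9.88%. It was 1 without any 1 control library, where 1.09% to 1.29% of all genes passed.

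**Figure D4:**
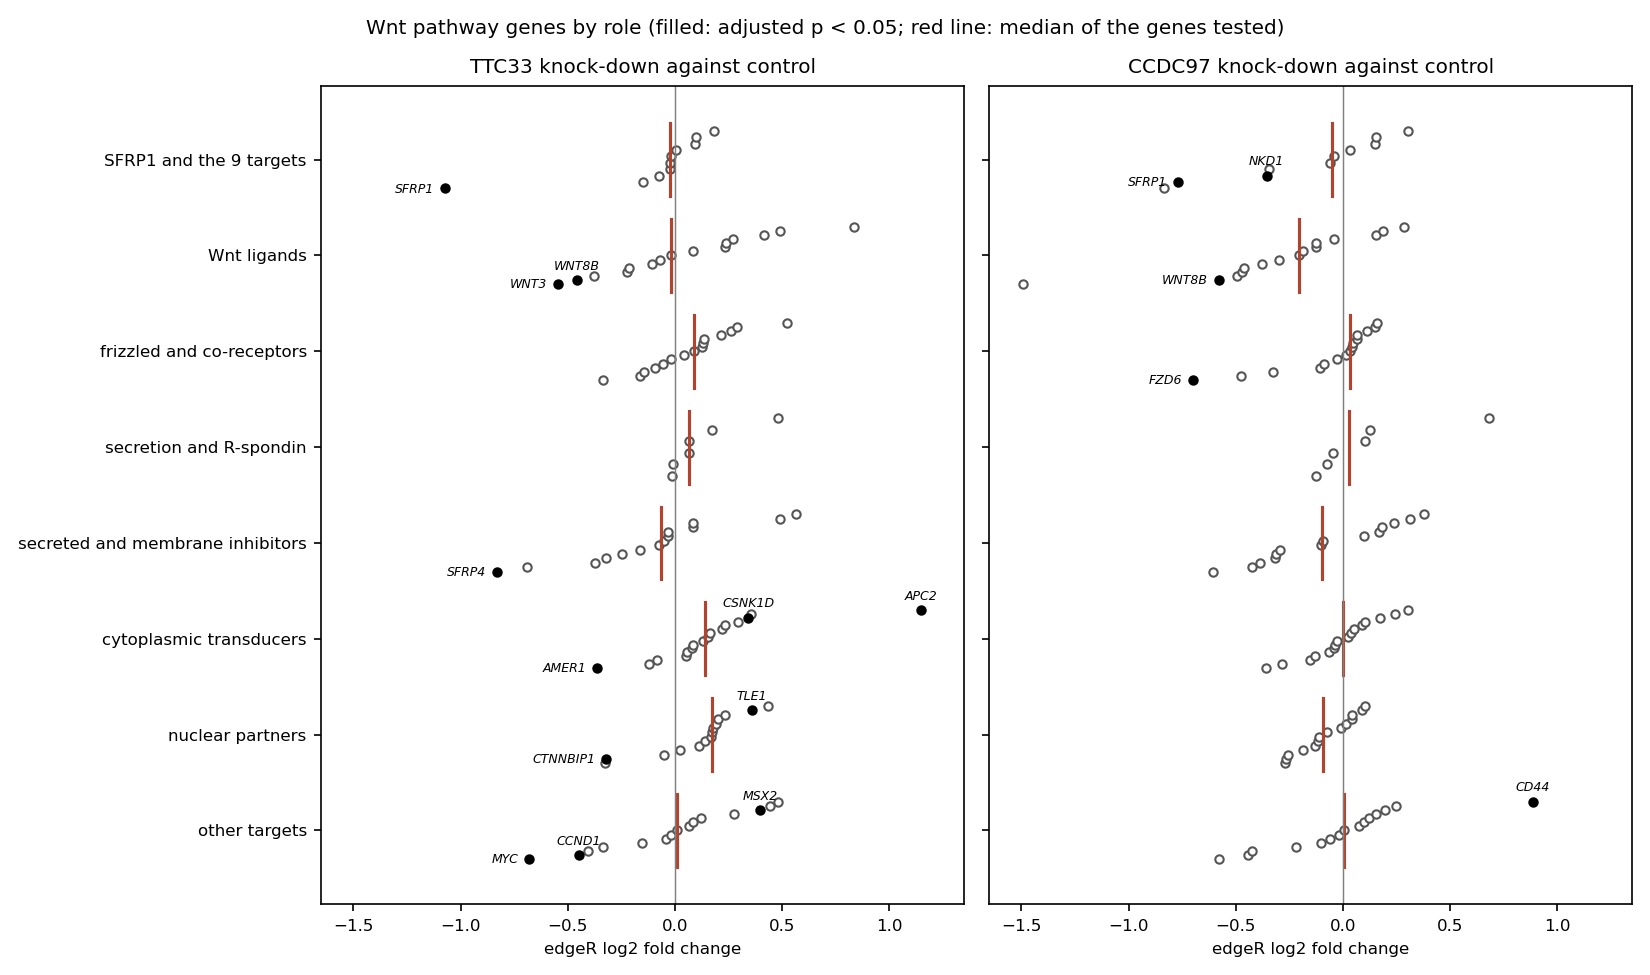
Log2 fold change against control (x axis) of each tested gene of the Wnt pathway by role (y axis, 1 band each), for the TTC33 knock-down (left) and the CCDC97 knock-down (right), with filled points at an adjusted p below 0.05 and a red line at the median of the band. SFRP1 at -1.07 is the lowest filled point on the left, and CD44 at 0.89 is the only filled point above 0 on the right.

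In the direct comparison of the knock-downs, 25 of the 95 further Wnt genes passed, 18 higher and 7 lower in the TTC33 knock-down, or 26.3% against 21.5% of all genes tested. With GC content and length corrected, 18 were higher and 16 lower, or 35.8% against 27.8% of all genes in the same fit. MYC stood at -0.78 ± 0.12 (edgeR adjusted p = 0.00197), CCND1 at -0.43 ± 0.07 (edgeR adjusted p = 0.00288), CD44 at -0.87 ± 0.08 (edgeR adjusted p = 9.4e-05) and FZD6 at 0.61 ± 0.13 (edgeR adjusted p = 0.0106) on the log2 scale. The count of 25 became 50 without TTC33 knock-down replicate 1, or 52.1% against 41.6% of all genes, and 41 without CCDC97 knock-down replicate 1, or 42.7% against 32.9%. It was 12 without TTC33 knock-down replicate 2, 10 without TTC33 knock-down replicate 3, 10 without CCDC97 knock-down replicate 2 and 11 without CCDC97 knock-down replicate 3, where 8.17% to 9.74% of all genes passed.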

How the data were processed

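Total RNA of 9 libraries of HEK293 Flip-In T-Rex cells was sequenced, 3 per group, with groups and replicate numbers from the labels, which name no batch. The authors deposited raw counts of reads for each gene. The submitters' processing notes name Trimmomatic 0.39, HISAT2, HTSeq 2.0.1 and the build GRCh38. Not given in the sources used here are the HISAT2 version, the annotation release, the strand setting and the library kit's strandedness. Each library has a count table marked R12, used throughout, and a smaller one marked U, 6.55% to 11.9% of the sum, whose meaning is not stated. Entries without a gene, 33.4% to 57.9% of a library's R12 counts, entered neither library sizes nor tests.

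Genes were kept with filterByExpr of edgeR 4.0.16 (R 4.3.3), which left 18299, and scaled with TMM factors. The quasi-likelihood fit took all 9 libraries, 1 coefficient for each group, and had 6 residual degrees of freedom. The p-values are two-sided, Benjamini-Hochberg adjusted over all genes tested, with a threshold of 0.05. SE is the fold change divided by the root of its F statistic. CPM is per 1e6 TMM-scaled counts, and per-library log2 values use a prior count of 2. The correction for GC content and length fitted a smooth trend per library (mgcv 1.9.3) and entered it as offsets. GENCODE 29 gave the GC content and length of 18042 of the tested genes (98.6%). Replicate pairs differed by more than counting noise (chi-square per degree of freedom of 3.59 to 39.2), so each library counts once. DESeq2 1.42.0 was an alternative, with other scalings, filters, fits and libraries left out. Leaving out replicate 1 of both knock-downs was added after seeing the data. The scripts were tested on simulated data.

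The 10 genes and the lists of further Wnt genes were chosen with earlier results of these data known. The further genes named are, per list and knock-down against control, up to 3 called genes with the smallest adjusted p, and, for SFRP1 and AXIN2, those with the highest correlation, 1 of which is not reported here. Values of the direct comparison are given for those among them that the text needs. Overlapping genes share reads in ways these counts cannot separate.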

Additional observations from a re-analysis of the deposited data

How the results depend on the processing

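SFRP1 stayed below control in both knock-downs under each alternative tried. No gene called in a comparison and named for it here changed sign under the alternatives run for that gene. The smaller count table on its own was not 1 of these alternatives. Counts of the 10 genes called in the TTC33 knock-down against control, the CCDC97 knock-down against control and the direct comparison were 1, 2 and 3, and those of the 95 further Wnt genes were 11, 3 and 25. Without a filter on low counts, 21 further genes were called with TTC33 depleted, 19.8% of those tested against 10.2% of all genes. With CCDC97 depleted 5 were called, or 4.72% against 3.65%. With a filter on a mean of 5 CPM, 7 were called in the TTC33 knock-down, or 10.6% against 16% of all genes. DESeq2's size factors in edgeR called 5 of the 10 genes in the direct comparison, and 21.5% of all genes. The DESeq2 Wald test called 5 further genes in the CCDC97 knock-down, or 5.26% against 8.04% of all genes. In the direct comparison it called 5 of the 10, and 25.5% of all genes. A fit of only the 2 groups compared called 6 further genes in the CCDC97 knock-down, or 6.45% against 7.48% of all genes. In the direct comparison it called 1 of the 10 and 10 of the further genes, or 10.6% of these against 8.4% of all genes. The sum of R12 and U counts called 1 of the 10 genes in the CCDC97 knock-down, and 4.37% of all genes. With GC content and length corrected, 30 further genes were called in the TTC33 knock-down, or 31.6% against 27.4% of all genes. In the CCDC97 knock-down 5 of the 10 and 17 further genes were called, or 17.9% of the latter against 18.5% of all genes. In the direct comparison 5 of the 10 were called, and 27.8% of all genes. Without replicate 1 of both knock-downs, chosen after seeing the data, the 10 genes gave 3, 5 and 7 calls and the further genes 54, 43 and 63, in the order of comparisons above. The further genes' shares were 56.2%, 44.8% and 65.6%, against 48.7%, 35.6% and 55.2% of all genes in the same fits. With 1 library left out at a time, the 10 genes gave 1 to 2, 1 to 4 and 1 to 5 calls, and the further genes 2 to 38, 1 to 9 and 10 to 50. The cause was not tested.

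Replicate numbers recur in each group, and deviations of same-numbered libraries correlated from -0.504 to 0.0936 over genes. The best match in another group had the same number in 8 of 18 comparisons, and in both other groups for 1 of 9 libraries. With 3 libraries per group these values cannot exclude a shared batch, and the main fit did not pair libraries by number. With the replicate block, 2 further genes were called in the TTC33 knock-down, or 2.11% against 4.13% of all genes. In the CCDC97 knock-down 1 of the 10 and 1 further gene were called, or 1.05% of the further genes against 1.31% of all genes. In the direct comparison 1 of the 10 and 12 further genes were called, or 12.6% of the further genes against 10.1%. Over all genes the block called 756, 240 and 1857, against 2186, 835 and 3943 without it, and the GC content and length correction called 5011, 3393 and 5093. Other scalings moved the median of all genes by less than 0.03. DKK1 and SP5 had at most 26 counts in a library, so only large differences would be seen.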

Other observations

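Several transcripts that overlap the 10 genes were counted separately. AC090116.1, annotated within an intron of LGR5 on its strand, had 52, 18 and 12 counts in TTC33 knock-down libraries, 33, 50 and 37 in CCDC97 knock-down libraries, and 65, 74 and 63 in controls. Scaled for depth, it averaged 0.918 CPM in the TTC33 knock-down, 1.54 CPM in the CCDC97 knock-down and 1.94 CPM in controls. LGR5 itself was above all controls in the CCDC97 knock-down. LEF1-AS1, on the strand opposite to LEF1, averaged 0.587 CPM in the TTC33 knock-down, 0.877 CPM in the CCDC97 knock-down and 0.881 CPM in controls. These transcripts were picked from several at such positions and were not tested here. Others ran either way: TSPOAP1-AS1, opposite to RNF43, averaged 0.710 CPM in the TTC33 knock-down, 0.471 CPM in the CCDC97 knock-down and 0.513 CPM in controls. AC007608.4, which overlaps NKD1, averaged 0.296, 0.418 and 0.391 CPM in the same order. Reads of a host gene's unspliced transcript and of a transcript within its intron cannot be told apart in these counts.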
